A study of Mus musculus with 6 samples.

Results

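The mRNAs of the proteasome were examined in mouse oocytes that lack the RNA-binding protein LSM14B. The genes were chosen by name: every symbol of the deposited expression table that starts with Psm, followed by a letter from a to g and a number. This rule found 50 of the 24255 genes in the table. They are 8 Psma, 11 Psmb, 7 Psmc, 14 Psmd, 5 Psme, 1 Psmf and 4 Psmg symbols. Among the Psmc symbols, Psmc3ip is not a subunit. It encodes the meiotic recombination factor HOP2, which carries the prefix only because it binds an ATPase of the proteasome. Its values are given apart, but it is counted among the tested proteasome genes below.

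The study compared fully-grown oocytes (FGOs) at the germinal vesicle (GV) stage from WT females and from females homozygous for Lsm14b tm1a(KOMP)Mbp, a knockout-first, reporter-tagged insertion allele called Lsm14b-KO here, on a C57BL/6J background. Females of both groups received 5 IU of PMSG, a gonadotropin that drives follicle growth, and their oocytes were taken 46 h later. Each group had 3 libraries of 20 pooled oocytes, made by Smart-seq2, a protocol that amplifies full-length cDNA from very little RNA. The allele is carried by all cells of the animal and not by oocytes alone, and the age of the females used for RNA-Seq is not given in the sources used here. Whether the libraries of a group came from separate females is not stated, so the p-values measure the spread between these libraries, which may be technical.

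The 26S proteasome is the machine that destroys proteins tagged with ubiquitin. Its 20S core is a barrel of stacked rings built from alpha subunits (Psma), which form the outer gate, and beta subunits (Psmb), some of which carry the cutting sites. A cap sits on the barrel: its base holds a ring of ATPases (Psmc) that unfold the substrate, and its remaining subunits, most of them in the lid, carry Psmd symbols, as do several chaperones that help to build the base. Psme genes encode other activators of the core, Psmf1 encodes the regulator PI31, and Psmg genes encode chaperones of core assembly. In oocytes the proteasome is known for the removal of cyclin B and securin when meiosis advances. When proteasome activity falls, somatic cells raise the transcription of all subunits together through the factor NRF1 (Nfe2l1), which binds antioxidant response elements.

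Expression was given as FPKM, fragments scaled by transcript length and by the mapped fragments of the library, so that levels can be compared between genes. Any gene that reached 1 FPKM in 1 or more of the 6 libraries entered a limma fit on log2(FPKM + 1), and adjusted p-values are those of limma after Benjamini-Hochberg adjustment over all 6398 genes tested, with a threshold of 0.05. Of the 50 proteasome symbols, 39 were tested. The 11 that stayed below 1 FPKM in every library were Psma8, Psmb8, Psmb9, Psmb10, Psmb11, Psmd2, Psmd3, Psmd13, Psme1, Psme2 and Psmg2.

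The libraries differed in ways that touch every value below. Summed FPKM was 1141324 to 1244182 in WT, 1029728 in Lsm14b-KO replicate 1, 564671 in replicate 2 and 676656 in replicate 3. Lsm14b-KO replicate 1 lay nearest to WT, with Pearson's r across genes of 0.952 to 0.954 with the WT libraries on log2(FPKM + 1) over the tested genes, against 0.867 to 0.890 for replicate 2 and 0.917 to 0.929 for replicate 3. Estimated depth relative to WT replicate 1 was 1.03 to 1.14 in the other WT libraries and 1.33 to 2.17 in the Lsm14b-KO libraries. Lsm14b itself was at 2.77, 3.98 and 1.72 FPKM in WT and at 0, 0 and 0.102 FPKM in the libraries labelled Lsm14b-KO (log2 fold change -1.85, SE 0.25, adjusted p = 0.0038 by limma; exact permutation p = 0.10, the smallest that 3 against 3 libraries allow). All 9 oocyte markers were tested, with Dazl lower and Ddx4 higher in Lsm14b-KO. Ddx4 was at 0.388 to 0.9 FPKM in WT and 2.86 to 3.49 FPKM in Lsm14b-KO. It entered the test through Lsm14b-KO alone, so its call gives no support. The 6 red blood cell markers were at 0 throughout, the 7 immune markers summed to at most 0.783 FPKM, and the 9 cumulus and granulosa markers summed to 9.3 to 13.5 FPKM in WT and 5.58 to 9.45 FPKM in Lsm14b-KO. Among these last, 3 genes were tested, and Cyp19a1 was lower in Lsm14b-KO. Fshr was at 0.349 to 1.68 FPKM in WT and 1.82 to 2.07 FPKM in Lsm14b-KO (log2 fold change 0.73). Inha had a log2 fold change of 0.38 and reached 1 FPKM in Lsm14b-KO replicate 3 alone. Amh, Inhba and Foxl2 were at 0 in every library; their part in the results was not tested.

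The promoters of the genes that passed the test were inspected, because proteasome genes are known to be transcribed together. Windows from 250 bases before to 50 bases after the start came from RefSeq on GRCm38.p6 and were found for 42 of the 50 symbols, Psmc3ip among them. Psmd7 had none. The 250 bases before the start are shown for the 4 proteasome genes that passed the test and had a window, Psmc6, Psmg3, Psma5 and Psmd5, 5′ to 3′ on the strand of the gene. Psmc6 (chr14:45329574-45329823, + strand) and Psma5 (chr3:108256676-108256925, + strand) were lower in Lsm14b-KO, as was Psmg3 (chr5:139826895-139827144, - strand), and Psmd5 (chr2:34870963-34871212, - strand) was higher. Capitals mark any of 4 motifs on either strand: the antioxidant response element core TGACNNNGC, the CCAAT box, the ETS motif CCGGAAG and the GC box GGGCGG.
Psmc6: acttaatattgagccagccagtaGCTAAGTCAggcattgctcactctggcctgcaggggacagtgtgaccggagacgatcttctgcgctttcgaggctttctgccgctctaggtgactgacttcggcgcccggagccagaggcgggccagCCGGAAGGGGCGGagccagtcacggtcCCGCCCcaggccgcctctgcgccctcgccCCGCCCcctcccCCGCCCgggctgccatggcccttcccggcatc
Psmg3: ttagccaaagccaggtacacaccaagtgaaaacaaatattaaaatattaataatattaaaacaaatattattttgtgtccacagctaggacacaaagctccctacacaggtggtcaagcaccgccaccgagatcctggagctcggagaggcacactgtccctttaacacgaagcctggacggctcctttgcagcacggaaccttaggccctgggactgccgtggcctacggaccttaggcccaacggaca
Psma5: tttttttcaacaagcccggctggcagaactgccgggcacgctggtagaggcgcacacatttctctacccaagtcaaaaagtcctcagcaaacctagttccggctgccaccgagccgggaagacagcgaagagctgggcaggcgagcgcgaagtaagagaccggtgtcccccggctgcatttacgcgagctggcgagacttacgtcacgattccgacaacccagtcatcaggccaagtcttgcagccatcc
Psmd5: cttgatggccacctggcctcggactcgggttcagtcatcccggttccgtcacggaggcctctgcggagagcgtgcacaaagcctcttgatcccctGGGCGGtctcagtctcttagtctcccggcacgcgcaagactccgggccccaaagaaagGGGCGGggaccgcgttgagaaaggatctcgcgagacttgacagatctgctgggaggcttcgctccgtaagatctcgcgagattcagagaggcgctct
In these sequences the Psmc6 promoter held 1 antioxidant response element core, read on the opposite strand, 1 ETS motif directly beside a GC box, and 3 further GC boxes on the opposite strand. The Psmd5 promoter held 2 GC boxes, and 1 more reached or lay past its start. The Psma5 and Psmg3 promoters held none of the 4 motifs before the start, and Psmg3 had 1 ETS motif after it. A match is a description of letters and does not show that a factor binds there.

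Over the whole 300-base windows, the antioxidant response element core was found in 6 of the 41 proteasome genes with a window, Psmb5, Psmb6, Psmc6, Psmd9, Psmd12 and Psme4 (14.6%), against 14.0% of 27025 genes with a window and 17.2% of 4807 tested genes. The CCAAT box was found in 14 of the 41 (34.1%, against 41.1% of all genes and 46% of tested genes), and 8 of those 14 encode core subunits. The ETS motif was found in 14 (34.1%, against 9.93% and 21.3%). By class it was in 1 of 15 core genes, 3 of 5 ATPase genes and 6 of 12 Psmd genes. The GC box was found in 23 (56.1%, against 38.2% and 62.7%), among them 6 core, 3 ATPase and 10 Psmd genes. Some CCAAT and GC box matches share bases with another match.

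In WT oocytes the subunits of the same particle had very unequal mRNA levels. The core subunits, which are present in equal numbers in an assembled barrel, ranged from 3.84 to 1308 FPKM among the 14 tested genes, with a median of 182 FPKM. Psma2 had the highest level, 1308 FPKM ± 137 (SD, n = 3), followed by Psmb1 with 580 FPKM ± 45.5 and Psma1 with 444 FPKM ± 31.8. Psmb2 (324 FPKM ± 8.29) and Psma7 (315 FPKM ± 15.7) did not differ beyond their spread, nor did Psma6 (184 FPKM ± 20.9) and Psma4 (180.4 FPKM ± 26.7). Psmb7 lay between these pairs at 232 FPKM ± 14.6, and Psmb6 (116 FPKM ± 7.01), Psmb3 (90.4 FPKM ± 22.1), Psma5 (59.8 FPKM ± 6.51) and Psmb5 (36.5 FPKM ± 2.77) followed. At the low end, Psma3 was at 5.82 FPKM ± 0.681 and Psmb4 at 3.84 FPKM ± 1.96, and their ranges overlapped. Psma3, Psma4, Psma5, Psmb3 and Psmb5 have near-identical copies, between which fragments could have been split. Their places in this order are therefore uncertain. Psmb4, the lowest tested core gene, has no such copy.

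By median, the Psm-named cap genes had lower mRNA levels than the core. The 6 ATPases had a median WT level of 13.2 FPKM and the 11 tested Psmd genes one of 5.44 FPKM. Among the ATPases, Psmc6 stood at 95.5 FPKM ± 7.88, above Psmc5 (22.8 FPKM ± 5.2), Psmc2 (16.9 FPKM ± 0.399), Psmc1 (9.48 FPKM ± 0.944) and Psmc4 (4.68 FPKM ± 0.44), and Psmc3 was at 0.812 FPKM ± 0.845. Psmc6 thus lay above 5 core genes, Psmb3 (which it overlapped in range), Psma5, Psmb5, Psma3 and Psmb4. All of these but Psmb4 have near-identical copies. Among the Psmd genes, the chaperone Psmd10 (gankyrin) was highest at 92.7 FPKM ± 3.01, and the lid subunit Psmd7 (20.9 FPKM ± 2.6) and the ubiquitin receptor Psmd4 (18.6 FPKM ± 1.54) came next. Summed over genes, the core came to 3517 to 4124 FPKM in the WT libraries, against 149 to 151 FPKM for the ATPases and 165 to 174 FPKM for the Psmd genes. Core mRNA thus made up 87.5% to 89.0% of the summed FPKM of all proteasome symbols except Psmc3ip. The plot of the values of each library shows this spread, with most core genes far to the right of the cap genes.

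**Figure D1:**
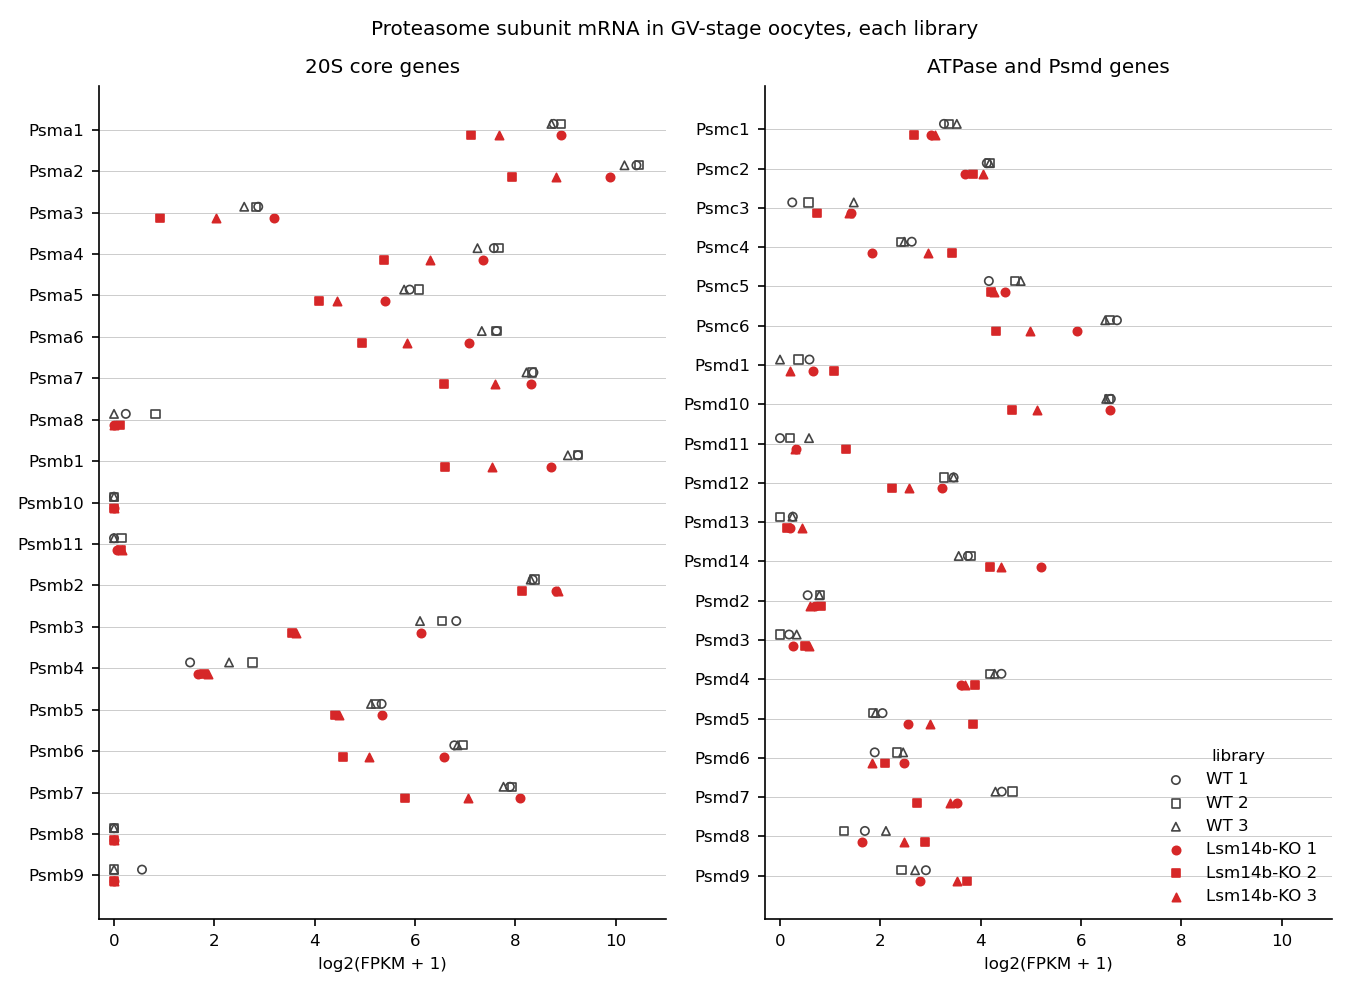
Each point is the level of 1 gene in 1 library, as log2(FPKM + 1) on the x axis, for the core genes (left) and the ATPase and Psmd genes (right); open grey symbols are the 3 WT libraries and filled red symbols the 3 Lsm14b-KO libraries. For most core genes the WT symbols lie close together, while Lsm14b-KO replicate 1 (circles) lies nearest to them and replicate 2 (squares) farthest to the left.

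Several subunits that every proteasome needs were barely listed in the table. Psmd1, the large scaffold of the base, was at 0.502, 0.293 and 0 FPKM in WT and 0.567, 1.12 and 0.154 FPKM in Lsm14b-KO, and the lid subunit Psmd11 was at 0, 0.148 and 0.493 FPKM in WT and 0.255, 1.48 and 0.233 FPKM in Lsm14b-KO. Both passed the minimum of 1 FPKM through Lsm14b-KO replicate 2 alone. The other large base subunit, Psmd2, stayed between 0.465 and 0.763 FPKM in all 6 libraries. The lid subunit Psmd13 was at 0.194, 0 and 0.187 FPKM in WT and 0.145, 0.0994 and 0.354 FPKM in Lsm14b-KO, and Psmd3 at 0.134, 0 and 0.259 FPKM in WT and 0.201, 0.412 and 0.49 FPKM in Lsm14b-KO. Since such genes are used by every cell, a value of 0 here says only that the gene is listed at 0. Psmd2 and Psmd11 have near-identical copies in the genome annotation (1 and 2), between which the authors' counting could have split fragments.

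The forms of the proteasome that belong to other tissues were at or near 0. Psmb8 and Psmb10, inducible catalytic subunits of the immunoproteasome, were listed at 0 in all 6 libraries. The remaining inducible subunit, Psmb9, was at 0.472 FPKM in WT replicate 1 and at 0 in the other 5 libraries. The immune activator subunit Psme2 was at 0 throughout, and its partner Psme1 was at 0.363 FPKM in Lsm14b-KO replicate 2 and at 0 elsewhere. Psma8, the alpha subunit of male germ cells, was at 0.177, 0.771 and 0 FPKM in WT and at 0, 0.0907 and 0 FPKM in Lsm14b-KO. Psmb11, the beta subunit of the thymus, was at 0, 0.111 and 0 FPKM in WT and at 0.0477, 0.0975 and 0.117 FPKM in Lsm14b-KO. The assembly chaperone Psmg2, which acts in all cells, was listed at 0, 0.277 and 0 FPKM in WT and at 0.948, 0.327 and 0 FPKM in Lsm14b-KO. With Psmd1, Psmd3, Psmd11 and Psmd13, 12 of the 50 symbols were listed at 0 in at least 1 library and 3 in all.

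Of the 39 proteasome genes tested, 5 were lower and 1 was higher in Lsm14b-KO at an adjusted p under 0.05. The lower genes were Psmg3, Psmc3ip, Psmd7, Psmc6 and Psma5, and the higher gene was Psmd5. These calls came to 15.4% of the 39, against 21.6% of all 6398 tested genes (15.2% lower and 6.38% higher). The share of calls was thus not above the background. Psmc3ip is not a subunit, and without it the calls came to 13.2% of 38 genes. In 15 genes all Lsm14b-KO libraries lay below all WT libraries (38.5%, against 26.0% of all tested genes), and in 4 all lay above (10.3%, against 19.1%). In pools of whole oocytes, less of an mRNA in each cell cannot be told apart from fewer cells that hold it. Together these 19 genes made up 48.7%, against a background of 45.0%. The fitted fold change was negative in 27 and positive in 12 of the 39, with a median of -0.59. Over all 6398 tested genes it was negative in 3401 and positive in 2997, with a median of -0.08. Since Psmd1 and Psmd11 reached the minimum only in an Lsm14b-KO library, their positive fold changes (0.33 and 0.39) give no support.

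**Figure D2:**
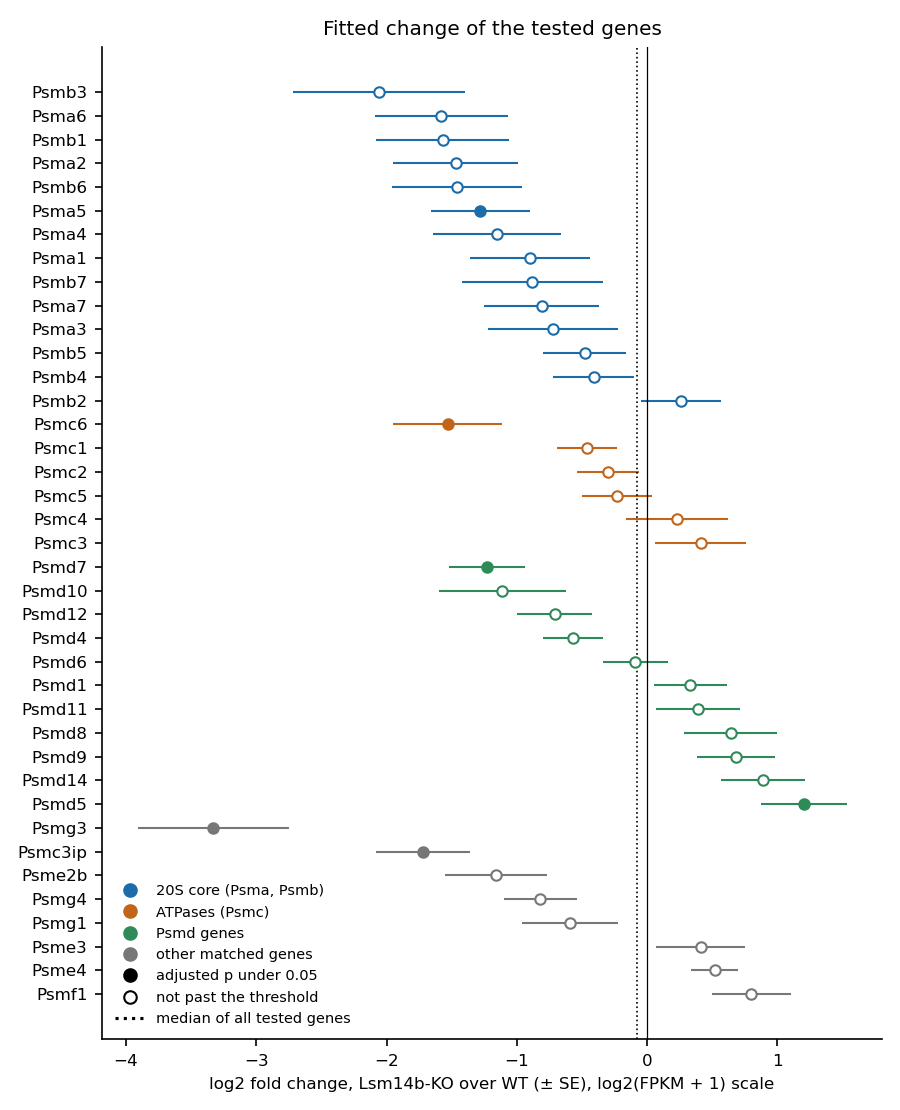
The fitted log2 fold change of each of the 39 tested genes, Lsm14b-KO over WT on the log2(FPKM + 1) scale, with bars of 1 SE; filled points have an adjusted p under 0.05 and the dotted line marks the median of all tested genes, -0.08. The 13 core genes to the left of 0 reach from Psmb4 at -0.41 to Psmb3 at -2.06, while the Psmd genes lie on both sides; under equal FPKM sums Psmb4, Psmb5, Psmc1, Psmc2, Psmc5, Psmd4 and Psmd6 turn positive.

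Psmg3, a chaperone that helps to form the alpha ring, had the largest change of the 39 genes. It was at 26.8, 34.2 and 26.3 FPKM in WT and at 6.58, 0.229 and 1.8 FPKM in Lsm14b-KO. The groups did not overlap, and replicate 2 held 0.785% of the WT mean. The fitted log2 fold change of -3.33 had an SE of 0.58 and an adjusted p of 0.00859, and it corresponds to a level 10.1-fold lower on the log2(FPKM + 1) scale. The gene (chr5:139823592-139826885, - strand of GRCm38) overlaps the annotated gene Gm26938 on the same strand. Its adjusted p was 0.0504 without WT replicate 2 and 0.0537 without Lsm14b-KO replicate 3.

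The other tested Psmg genes, Psmg4 and Psmg1, had smaller negative fold changes, and neither passed the test. Psmg4, the partner of Psmg3 in the same chaperone complex, was at 128, 101 and 101 FPKM in WT and at 62.0, 53.1 and 70.5 FPKM in Lsm14b-KO, without overlap, but missed the threshold (log2 fold change -0.82, SE 0.28, adjusted p = 0.0706). Its log2 fold change was -0.13 with equal FPKM sums, -0.25 after quantile normalization and -0.04 after the length and GC correction. Psmg1 was at 3.53, 0.915 and 1.01 FPKM in WT and at 0.261, 1.08 and 0.955 FPKM in Lsm14b-KO, and its groups overlapped (-0.59, adjusted p = 0.26, and -0.05 after the length and GC correction). Pomp, the chaperone that joins half-built barrels and lies outside the Psm names, was at 226 to 280.4 FPKM in WT and at 453, 114 and 187 FPKM in Lsm14b-KO (log2 fold change -0.26, adjusted p = 0.698).

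The alpha subunits had negative fold changes in 7 of 7 genes (all tested genes, 3401 of 6398), with a median of -1.15. Of the 7, 1 passed the test (14.3%, against 21.6% of all tested genes). Psma5 was at 58.4, 66.8 and 54.0 FPKM in WT and at 41.5, 15.9 and 20.7 FPKM in Lsm14b-KO, and its groups did not overlap. Its fitted log2 fold change of -1.28 had an SE of 0.38 and an adjusted p of 0.0469, just inside the threshold, and the adjusted p was 0.0697 to 0.102 under the 3 other scalings tried. Psma5 (chr3:108256926-108279974, + strand) has 2 near-identical copies, Gm12989 and Gm8394, and overlaps 1700010K24Rik on the other strand. Because the strand setting is not stated, fragments of the 2 overlapping genes cannot be told apart.

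Psma6 and Psma2 lay just outside the threshold. Psma6 was at 196, 196 and 159.8 FPKM in WT and at 133, 29.8 and 56.1 FPKM in Lsm14b-KO (log2 fold change -1.58, SE 0.51, adjusted p = 0.0598). Psma2 was at 1360.5, 1410.5 and 1153 FPKM in WT and at 941, 243 and 449 FPKM in Lsm14b-KO (-1.47, SE 0.48, adjusted p = 0.0608). Neither gene overlapped between the groups. In Psma1, Psma3, Psma4 and Psma7, Lsm14b-KO replicate 1 fell within or above the WT range, at 90.5% to 140.0% of the WT mean, while replicate 2 was at 15.4% to 30.9% and replicate 3 at 42.8% to 60.9%. Psma3 has 4 near-identical copies and Psma4 has 1, so both are uncertain.

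No beta subunit passed the test in limma, and 3 of the 7 had an unadjusted p under 0.05 (42.9%, against 39.4% of all tested genes). Their fold changes were negative in 6 of 7 genes, with a median of -0.88. The catalytic subunits differed in how far the libraries moved. Psmb5, which carries the chymotrypsin-like site, was at 39.3, 36.4 and 33.8 FPKM in WT and at 39.3, 20.3 and 21.5 FPKM in Lsm14b-KO (log2 fold change -0.48, adjusted p = 0.284; 0.19 under equal FPKM sums and 0.05 after the length and GC correction). Psmb6, with the caspase-like site, was at 109, 123 and 114 FPKM in WT and at 94.3, 22.5 and 32.8 FPKM in Lsm14b-KO, without overlap (-1.46, SE 0.5, adjusted p = 0.0694). Psmb7, with the trypsin-like site, was at 236, 244 and 216 FPKM in WT and at 272, 54.8 and 131 FPKM in Lsm14b-KO (-0.88, adjusted p = 0.245). In all 3, Lsm14b-KO replicate 1 had the highest value of its group, and in Psmb5 and Psmb7 it reached the WT range or passed it. Psmb5 has 1 near-identical copy.

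Of the structural beta subunits, Psmb3 had the largest fitted change and Psmb2 moved the other way. Psmb3 was at 112, 92.2 and 67.5 FPKM in WT and at 68.7, 10.7 and 11.3 FPKM in Lsm14b-KO (log2 fold change -2.06, SE 0.66, adjusted p = 0.0598). Its groups overlapped through Lsm14b-KO replicate 1, and it has 3 near-identical copies. Psmb1 was at 605, 608 and 527 FPKM in WT and at 415, 95.4 and 185 FPKM in Lsm14b-KO, without overlap (-1.57, SE 0.51, adjusted p = 0.0598). Psmb2 was at 324, 332 and 315 FPKM in WT and at 449, 281 and 461 FPKM in Lsm14b-KO (0.26, SE 0.31, adjusted p = 0.542). It was the only core gene with a positive fold change in FPKM as deposited, and its adjusted p was 0.0313 with equal FPKM sums, where its log2 fold change was 0.95. Psmb4 was at 1.86, 5.77 and 3.9 FPKM in WT and at 2.2, 2.47 and 2.68 FPKM in Lsm14b-KO, within the WT range.

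Across the core, the 3 Lsm14b-KO libraries differed from each other more than the WT libraries did. The median deviation of the 14 core genes from the WT mean was -0.21 in Lsm14b-KO replicate 1, -1.95 in replicate 2 and -1.16 in replicate 3 on the log2 scale, against -0.12 to 0.08 in the WT libraries. Over all tested genes the same medians were -0.04, -0.14 and -0.07. The values fell below all WT libraries in 5 of the 14 core genes in replicate 1, in 13 in replicate 2 and in 12 in replicate 3. Of all 6398 tested genes, 2388, 2847 and 2643 did so in the same libraries. The order replicate 1, then 3, then 2 held in 12 of the 14 core genes, 3 of 6 ATPases and 4 of 11 Psmd genes. Replicate 1 was the highest Lsm14b-KO library in 12 core genes and in 2954 of all 6398 tested genes. Replicate 2 was the lowest in 13 core genes and in 2745 of all tested genes. With equal FPKM sums the core medians became -0.01, -1.04 and -0.36, beside 0.10, 0.59 and 0.46 for all tested genes.

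**Figure D3:**
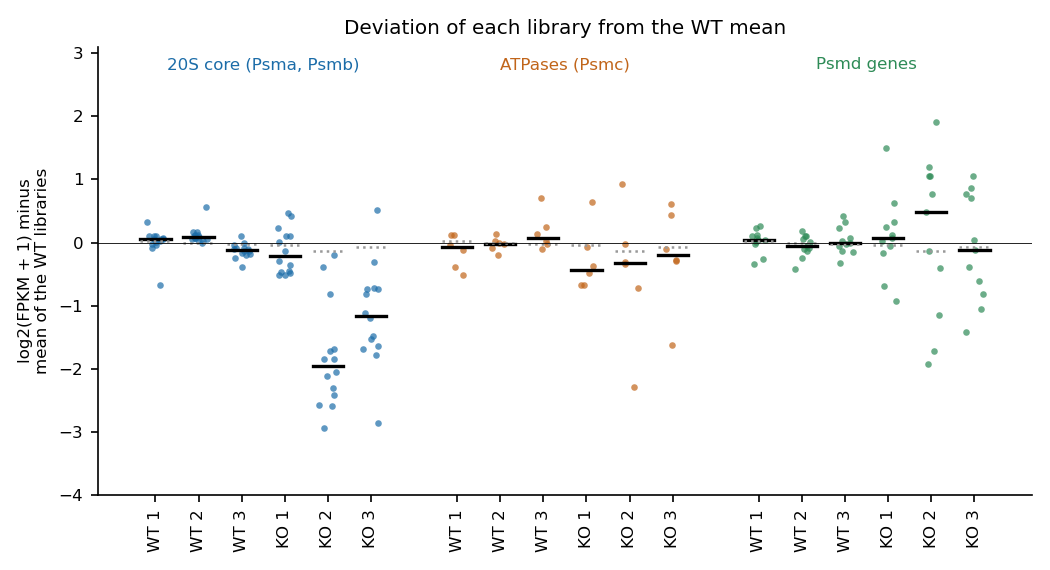
The deviation of each tested gene from the mean of the WT libraries, in log2(FPKM + 1), for the core, the ATPases and the Psmd genes in each of the 6 libraries (KO, Lsm14b-KO). Black lines are class medians and dotted grey lines the median of all tested genes; the core median falls to -1.95 in KO 2 and -1.16 in KO 3 but stays at -0.21 in KO 1.

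The number of calls rested on single libraries and on the filter, as it did over all tested genes. Without the filter on low values, Psmg3 and Psmc3ip alone passed, in a fit that called 5.03% of all genes. Without Lsm14b-KO replicate 1, 20 of the 39 genes were lower and 6 were higher, 51.3% and 15.4% of them, against 27.3% and 18.0% of all tested genes in the same fit. In the core 12 of 14 genes were then lower, all 7 alpha subunits among them. The core median was -1.55 without Lsm14b-KO replicate 1 and -0.59 without replicate 2. Psmb2 and Psmb4 did not pass in the former fit. Without WT replicate 1 or WT replicate 3 the call of Psmg3 alone was kept (all tested genes, 6.19% and 7.22% called). Without Lsm14b-KO replicate 2 those of Psmg3, Psmc3ip and Psmd7 were kept (13.5%). Without WT replicate 2 or without Lsm14b-KO replicate 3, limma called none of the 39, beside 6.21% and 4.92% of all tested genes. Each time 11 of the 39 had an unadjusted p under 0.05 (28.2%, against 29.6% and 28.4% of all tested genes). The fits without 1 library hold 2 libraries in 1 group and 3 in the other.

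Of the 6 ATPases 1 passed the test (16.7%, against 21.6% of all tested genes). Psmc6 was at 104, 94.4 and 88.3 FPKM in WT and at 59.6, 18.7 and 30.4 FPKM in Lsm14b-KO. All 3 Lsm14b-KO libraries lay below the lowest WT library, and Psmc6 was 2.88-fold lower on the log2(FPKM + 1) scale. The fitted log2 fold change of -1.53 had an SE of 0.42 and an adjusted p of 0.0382. Psmc6 (chr14:45329788-45349705, + strand) overlaps no other annotated gene and has no near-identical copy. With equal FPKM sums its log2 fold change was -0.85 and its adjusted p 0.055, and after quantile normalization they were -1.04 and 0.0762.

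The other 5 ATPases had small fold changes of both signs. Psmc1 was at 8.63, 9.31 and 10.5 FPKM in WT and at 7.06, 5.37 and 7.5 FPKM in Lsm14b-KO, and Psmc2 at 16.4, 17.1 and 17.1 FPKM and at 11.8, 13.4 and 15.6 FPKM. Neither overlapped between the groups, yet with log2 fold changes of -0.46 and -0.3 neither passed the test (adjusted p = 0.167 and 0.354). Psmc1 has 2 near-identical copies, so its values are uncertain. Psmc5 overlapped between the groups (16.9 to 26.8 FPKM in WT, 17.4 to 21.3 FPKM in Lsm14b-KO). Psmc3 was at 0.184, 0.481 and 1.77 FPKM in WT and at 1.65, 0.66 and 1.6 FPKM in Lsm14b-KO and did not separate the groups. Psmc4 was at 4.31 to 5.17 FPKM in WT and at 2.57, 9.82 and 6.67 FPKM in Lsm14b-KO, so that its replicate 1 lay below and the other two above WT. The median of the 6 was -0.27 in FPKM as deposited, 0.08 after quantile normalization, 0.03 after the length and GC correction and 0.39 with equal FPKM sums, so its sign depended on the scaling.

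Among the 11 tested Psmd genes 1 was lower and 1 was higher (18.2% called, against 21.6% of all tested genes). Psmd7, a lid subunit that pairs with the deubiquitinase Psmd14, was at 20.4, 23.8 and 18.6 FPKM in WT and at 10.5, 5.63 and 9.51 FPKM in Lsm14b-KO. The groups lay well apart, and Psmd7 was 2.35-fold lower on the log2(FPKM + 1) scale. The fitted log2 fold change of -1.23 had an SE of 0.29 and an adjusted p of 0.0232. Psmd7 (chr8:107580381-107588464, - strand) overlaps no other gene. Its adjusted p was 0.112 with equal FPKM sums and 0.0581 after quantile normalization.

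Psmd14, which removes ubiquitin chains as substrates enter the core, had values on the other side. It was at 12.4, 12.9 and 10.8 FPKM in WT and at 35.7, 17.2 and 20.2 FPKM in Lsm14b-KO, without overlap. In FPKM as deposited its fitted log2 fold change was 0.89 with an SE of 0.32 and missed the threshold (adjusted p = 0.0772). With equal FPKM sums it was 1.55 (adjusted p = 0.00679), after quantile normalization 1.19 (0.0276) and after the length and GC correction 1.36 (0.00575). Here Lsm14b-KO replicate 1, the library nearest to WT in the core, was the farthest from WT.

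Psmd5, a chaperone that holds ATPases during assembly of the base, was the only proteasome gene called higher in FPKM as deposited. It was at 3.12, 2.6 and 2.74 FPKM in WT and at 4.89, 13.3 and 6.95 FPKM in Lsm14b-KO, so that every Lsm14b-KO library lay above every WT library. Psmd5 was 2.29-fold higher, with a fitted log2 fold change of 1.2, an SE of 0.33 and an adjusted p of 0.0378, and the call was kept under the 3 other scalings. Psmd5 (chr2:34849734-34874968, - strand) overlaps Cutal on the other strand, from which its fragments cannot be told apart.

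The other base chaperones, Psmd9 and Psmd10, did not pass the test. Psmd9 was at 6.5, 4.36 and 5.46 FPKM in WT and at 5.94, 12.2 and 10.6 FPKM in Lsm14b-KO (log2 fold change 0.68, SE 0.3, adjusted p = 0.133), the same sign and order of Lsm14b-KO libraries as Psmd5. Psmd10 was at 95.5, 93.1 and 89.5 FPKM in WT and at 94.6, 23.7 and 34.0 FPKM in Lsm14b-KO (-1.11, SE 0.49, adjusted p = 0.131), with replicate 1 inside the WT range and the other two far below it. Of the remaining lid and base genes, Psmd12 and Psmd4 were lower in every Lsm14b-KO library without passing the test (-0.71, adjusted p = 0.111, and -0.57, adjusted p = 0.113), and Psmd6 and Psmd8 overlapped between the groups. Psmd4 had a log2 fold change of 0.09 with equal FPKM sums. The median of the 11 Psmd genes was 0.33 but rested on weakly detected genes: among the 7 with a mean of at least 5 FPKM it was -0.57.

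The class medians in FPKM as deposited were -1.02 for the core, -0.27 for the ATPases and 0.33 for the Psmd genes, the last being the value of Psmd1. Without Psmd1 and Psmd11 the Psmd median was -0.09, and among genes with a mean of at least 5 FPKM it was -0.57, below the ATPases at -0.3, so no order is read between the ATPases and the Psmd genes. Set against the all-gene median, the medians of the tested genes were -0.95, -0.19 and 0.4. With equal FPKM sums, where the median of all tested genes moved to 0.4, they were -0.75, -0.01 and 0.16 relative to it. The core median thus lay below that of all genes under each of the 4 scalings, while Psmb2 lay above it under each and Psmb4 and Psmb5 had positive fold changes under equal FPKM sums and after the length and GC correction. The 5 lower and 1 higher calls became 2 and 5 with equal FPKM sums, 2 and 4 after quantile normalization and 4 and 3 after the length and GC correction. The background moved the same way, from 15.2% lower and 6.38% higher to 7.6% and 13% with equal FPKM sums, 11.5% and 8.44% after quantile normalization and 12.5% and 10.2% after the length and GC correction. No test of the difference between classes was made.

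**Figure D4:**
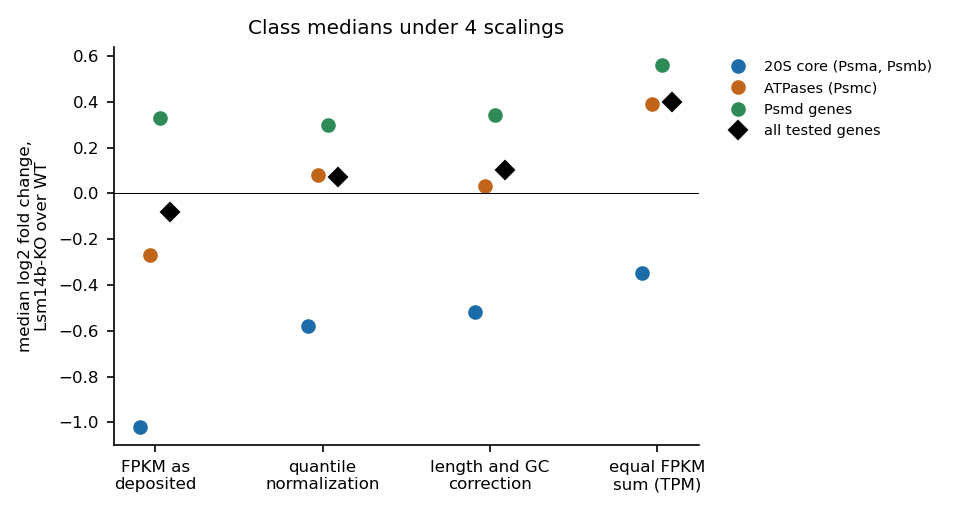
The median log2 fold change, Lsm14b-KO over WT, of the core (14 genes), the ATPases (6 genes), the Psmd genes (11 genes) and all tested genes under 4 scalings of the same table. The core stays below all tested genes, from -1.02 in FPKM as deposited to -0.35 with equal FPKM sums, and the ATPase median passes from -0.27 to 0.39; the Psmd median includes the weakly detected Psmd1 and Psmd11.

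Ratios of summed levels depended on which genes were counted. The ratio of summed core FPKM to summed Psmd FPKM, which is not affected by the scaling of a library, was 22.9, 24.4 and 21.3 in WT and 19.1, 10.2 and 17.3 in the Lsm14b-KO libraries. The ratio of ATPase to Psmd sums was 0.867, 0.888 and 0.903 in WT and 0.579, 0.633 and 0.749 in Lsm14b-KO. The ratio of alpha to beta sums was 1.8, 1.86 and 1.75 in WT and 1.55, 1.15 and 1.18 in Lsm14b-KO. None of these 3 ratios overlapped between the groups, and each is carried by its most abundant genes: Psma2 for the alpha subunits, Psmc6 for the ATPases and Psmd10 for the Psmd genes. The Psmd sum leaves out the lid subunit Shfm1 (Sem1), which has no Psm name. With Shfm1 added to the Psmd sum, a choice made after seeing the data, the core ratio turned round, at 6.21, 5.94 and 5.88 in WT and 8.05, 6.71 and 9.97 in Lsm14b-KO. The ATPase ratio was then 0.217 to 0.249 in WT and 0.245, 0.417 and 0.432 in Lsm14b-KO. The ratio of core to ATPase sums was 23.6 to 27.4 in WT and 32.9, 16.1 and 23.1 in Lsm14b-KO, on both sides of WT. All proteasome symbols except Psmc3ip together made up 0.352% to 0.396% of the summed FPKM in WT and 0.373%, 0.239% and 0.324% in Lsm14b-KO.

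The activators and the regulator PI31 had values of both signs. Psme4, which encodes the large activator PA200, was at 1.7, 2.17 and 1.85 FPKM in WT and at 3.36, 2.93 and 3.18 FPKM in Lsm14b-KO, without overlap (log2 fold change 0.52, SE 0.18, adjusted p = 0.0772). Psmf1 was at 30.6, 32.3 and 37.8 FPKM in WT and at 43.3, 64.3 and 73.9 FPKM in Lsm14b-KO, also without overlap (0.8, SE 0.3, adjusted p = 0.0897). Psme4 and Psmf1 passed with equal FPKM sums, and Psmf1 also after quantile normalization. Psme3, the nuclear activator, overlapped between the groups (0.41, adjusted p = 0.375). Psme2b was at 20.6 to 23.5 FPKM in WT and at 17.7, 5.94 and 6.99 FPKM in Lsm14b-KO (-1.16, adjusted p = 0.0644). It is a near-identical copy of Psme2, which was listed at 0, and fragments could have been assigned to either.

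Psmc3ip, matched by its name alone, was at 9.33, 9.92 and 12.7 FPKM in WT and at 5.04, 1.29 and 2.1 FPKM in Lsm14b-KO. Its groups did not overlap (log2 fold change -1.72, SE 0.36, adjusted p = 0.0163). Psmc3ip (chr11:101091823-101095436, - strand) overlaps Mlx on the other strand. Without it, 4 of 38 genes were lower and 1 was higher.

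The proteasome genes were shorter than most tested genes, and length moved with the fold change. Median transcript length was 1162 nt for the core, 1614 nt for the ATPases and 1581 nt for the Psmd genes, against 2258 nt for all tested genes. Spearman's rho between transcript length and log2 fold change was 0.51 over 39 proteasome genes and 0.36 over the 6318 tested genes with a length. Genes are not independent replicates, and all points share the 6 libraries. The 39 include Psmd1 and Psmd11, which reached the minimum in Lsm14b-KO alone. Below 1000 nt, the median log2 fold change was -0.99 for 8 proteasome genes and -0.62 for all 948 genes of that length. From 1000 to 2000 nt it was -0.59 for 21 and -0.32 for all 1835, and from 2000 to 3000 nt -0.16 for 6 and 0.03 for all 1300. These 6 include Psmd11 (0.39), so their median is not read. The others were Psma2 (-1.47), Psma3 (-0.72), Psmc6 (-1.53), Psmd9 (0.68) and Psme3 (0.41). Above 3000 nt, leaving out Psmd1, the 3 genes Psmd5, Psme4 and Psmf1 had a median of 0.8 beside 0.27 for all 2235. After a correction for length and GC content the core median was -0.52, beside 0.1 for all genes. The part of length in the fold changes was otherwise not tested.

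**Figure D5:**
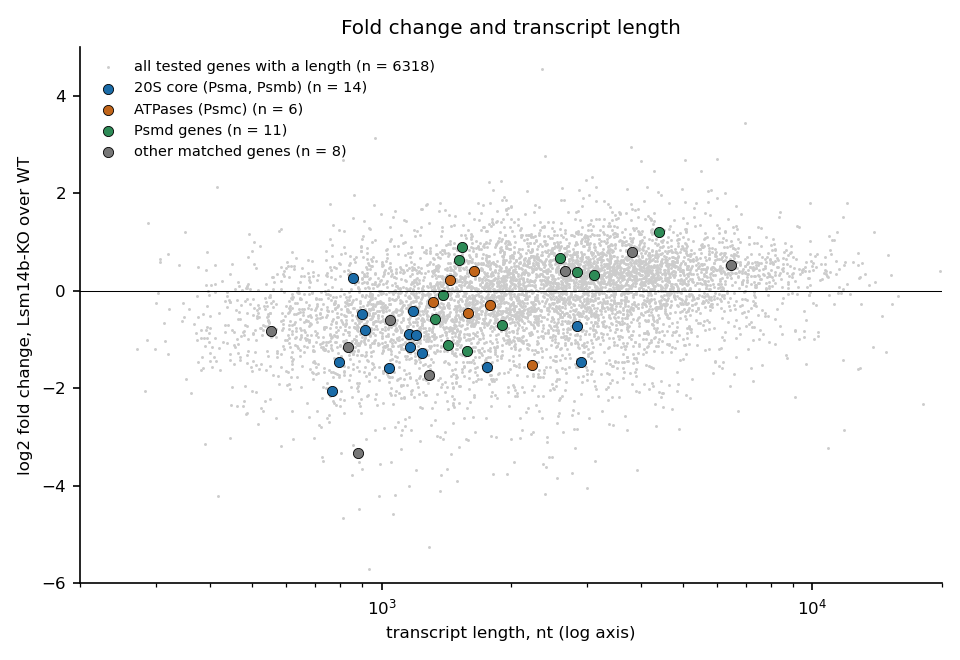
The log2 fold change, Lsm14b-KO over WT, of each tested gene against its transcript length in nt (log axis), with all tested genes in grey and the proteasome genes coloured by class. Values rise with length in both sets (Spearman's rho 0.51 over 39 proteasome genes and 0.36 over all genes with a length). The 39 include Psmd1 and Psmd11, which reached 1 FPKM in Lsm14b-KO alone. Most core genes lie at the short end.

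Other genes of the ubiquitin-proteasome pathway were read from a list of 32, of which 31 were in the table and 25 were tested. Of these, 1 was lower and 0 were higher in Lsm14b-KO in limma (4.0% called, against 21.6% of all tested genes). At an unadjusted p under 0.05, 2 were lower and 4 were higher (8.0% and 16%, against 23.7% and 15.6% of all tested genes), and of those 4, Vcp and Zfand2a reached 1 FPKM in Lsm14b-KO libraries alone. The median log2 fold change was 0.13, and 11 values were negative and 14 positive. Among the positive ones, Vcp, Zfand2a, Nfe2l1, AI314180 and Uba1 reached 1 FPKM in Lsm14b-KO libraries alone. Among the negative ones, Adrm1 reached it in WT alone. No direction is therefore read from the median or from the split of signs. The lower gene was Shfm1 (Sem1), which encodes the smallest lid subunit. It was at 469.8, 525 and 433 FPKM in WT and at 246, 53.3 and 78.3 FPKM in Lsm14b-KO, without overlap. Its fitted log2 fold change of -2.22 had an SE of 0.54 and an adjusted p of 0.0259. This subunit without a Psm name had a higher WT mean, 476 FPKM, than any Psmd gene and than all core genes but Psma2 and Psmb1.

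The remaining pathway genes did not pass. Nfe2l1, which encodes NRF1, was at 0.115, 0.255 and 0.0565 FPKM in WT and at 0.307, 1.31 and 0.536 FPKM in Lsm14b-KO, and reached the minimum of 1 FPKM in Lsm14b-KO replicate 2 alone. Akirin2, which brings proteasomes into the nucleus, was at 223 to 269 FPKM in WT and at 288, 138 and 186 FPKM in Lsm14b-KO (log2 fold change -0.35, adjusted p = 0.463). The proteasome-bound deubiquitinase Usp14 was at 2.8 to 3.9 FPKM in WT and at 4.71 to 9.09 FPKM in Lsm14b-KO (0.8, adjusted p = 0.0649). The segregase Vcp, which extracts ubiquitin-tagged proteins, was at 0.329 to 0.879 FPKM in WT and at 1.11 to 1.78 FPKM in Lsm14b-KO (0.74, adjusted p = 0.0518). The ubiquitin gene Ubb, with 18584 to 20931 FPKM in WT and 19725, 12745 and 15705 FPKM in Lsm14b-KO, was far more abundant than any proteasome gene, and Rps27a, a ubiquitin fusion with a ribosomal protein, was at 79.0 to 90.6 FPKM in WT and at 59.2, 19.3 and 34.0 FPKM in Lsm14b-KO (-1.27, adjusted p = 0.0583).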

How the data were processed

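RNA of 6 libraries, 3 WT and 3 Lsm14b-KO, was analysed from the deposited FPKM values, which the authors computed with cufflinks 2.2.1 after trimming and tophat2 2.0.13 alignment to mm10; the annotation and strandedness are not given in the sources used here, and the labels name 2 library kits. The table also holds the authors' cuffdiff log2 fold changes, p-values and q-values, which were not used, and 27 symbols turned into dates. Groups came from the titles. Values were tested as log2(FPKM + 1) with limma 3.58.1 (R 4.3.3), genotype as the only term and a variance trend, on genes reaching 1 FPKM in any library, two-sided. The members and lists were chosen with earlier results of these data known. All 50 symbols are named. Values per library are given for genes past the threshold, catalytic, inducible and tissue-specific subunits, Psmd14 and genes listed at 0; others shown per library were chosen after their values were seen. The table holds no counts, so no count test was run; depth was estimated from the smallest values of low genes. Coordinates are from GENCODE vM21 (GRCm38), lengths from its transcripts (98.7% of tested genes), and copies from blastn 2.17.0 (95% identity over 200 nt). Of the 50, 10 had a copy, 24 overlapped another gene and 19 overlapped one on the other strand. Alternatives were another pseudocount, other filters, 3 other scalings, zeros as missing, no trend, a replicate block and leaving out each library.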

Additional observations from a re-analysis of the deposited data

How the results depend on the processing

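The 39 genes kept the sign of their fold change under a pseudocount of 0.1, without a filter, with zeros as missing, without the variance trend and with the replicate block. With equal FPKM sums (TPM scaling) 7 turned positive: Psmb4 (0.12), Psmb5 (0.19), Psmc1 (0.15), Psmc2 (0.35), Psmc5 (0.43), Psmd4 (0.09) and Psmd6 (0.45). After the length and GC correction Psmb4 (0.04), Psmb5 (0.05), Psmc5 (0.16) and Psmd6 (0.36) did, and after quantile normalization Psmc2 (0.03) and Psmc5 (0.14). Over the fits without 1 library Psmd6 ranged from -0.26 to 0.06 and Psmc4 from -0.11 to 0.69. The cause was not tested. The 5 lower and 1 higher calls became 2 and 0 without a filter, where more genes are tested. They became 2 and 5 with equal FPKM sums, 2 and 4 after quantile normalization and 4 and 3 after the length and GC correction. Over all genes the calls moved the same way in these fits, to 3.78% lower and 1.24% higher without a filter. Leaving out each library gave 0 to 20 lower and 0 to 6 higher, beside 4.31% to 27.3% and 0.61% to 18.0% of all tested genes. In the replicate block fit 5 were lower and 1 higher: Psmb3 (-2.06, adjusted p = 0.0312) entered and Psma5 (adjusted p = 0.0613) left. For libraries with the same number, the deviations of all tested genes from their group means correlated at 0.19, -0.128 and 0.018. The numbers were therefore not taken as pairs.

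The median fold change of the 39 genes was -0.88 at a mean of at least 5 FPKM, -0.11 with equal FPKM sums, -0.24 after quantile normalization and -0.17 after the length and GC correction. The core median was -0.35 with equal FPKM sums, and over the fits without 1 library it ranged from -1.55 (without Lsm14b-KO replicate 1) to -0.59 (without replicate 2). The ATPase median was 0.39, 0.08 and 0.03 under those 3 scalings, in that order. The Psmd median was 0.76 with a pseudocount of 0.1, -0.57 at a mean of at least 5 FPKM and 0.56 with equal FPKM sums. Over genes reaching 1 FPKM in both groups, an alternative chosen after seeing the data, it was -0.09. Without 1 library, the median of the 39 genes ranged from -0.77 to -0.35, and that of the Psmd genes from 0.06 to 0.55. Of the other pathway genes, where 1 was called, 0 were called without a filter, 2 at a mean of at least 5 FPKM, 6 with equal FPKM sums, 2 with zeros as missing and 0 to 10 without 1 library. Lsm14b kept its call in every fit that held it, with adjusted p from 0.00312 to 0.0299. The stricter filter left it out, since its mean is below 5 FPKM. With 3 libraries a group and no counts, changes near the threshold cannot be resolved, and values of 0 may be failed estimates.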
